A study of Bos taurus with 20 samples.

Results

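Translation initiation factors were examined in blood drawn from 20 embryo recipients on gestation day 63. Members were all genes whose NCBI cattle symbol began with EIF1 to EIF6, without the eIF2 kinases named EIF2AK, that reached 10 counts in 5 or more cows. Of 49 genes with such a name, 46 were members, out of 16269 genes that passed the same minimum and 37063 genes in the files. EIF4E1B had between 4 and 10 counts in 5 cows and 0 in the other 15, whereas EIF4EBP3 and the Y-linked EIF1AY were at 0 in all 20 cows. A count of 0 allows a level of up to 0.122 CPM (counts scaled to a common library size) in the shallowest library, taking 3 counts as the limit.

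All 20 cows formed 1 group, maternal blood, and the variable was the birth weight (BW) of the calf, from 30 to 72.5 kg and 45.0 ± 10.1 kg on average (SD, n = 20). Each cow carried a single embryo produced in vitro from an oocyte of a beef donor and sex-sorted semen, and every calf was female. The methods describe the recipients as lactating dairy cows, whereas the study's overview of its animals gives Angus as their breed and a wide span of ages; the labels give neither. There was no untreated or non-pregnant group and no second library of any cow, so p-values measure the spread between these cows. Total counts per cow were between 24632077 and 39892111 (median 33412740), and the 46 members took between 0.710% and 0.812% of them (median 0.769%).

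To start a protein, eIF2 brings the initiator transfer RNA to the small ribosomal subunit, which eIF1, eIF1A, eIF5 and the large eIF3 complex keep ready for scanning. The eIF4 factors bind the cap of the messenger RNA and unwind its leader, and eIF5B joins the large subunit once the start codon is found. The pathway is regulated mainly at eIF2, whose nucleotide is exchanged by eIF2B, and at eIF4E, which is held by small binding proteins under the control of mTOR. In blood, nucleated cells carry most of this machinery, and mature red cells of mammals and platelets have no nucleus to renew its RNA.

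The leukocyte markers PTPRC, CORO1A, LCP1 and LAPTM5 were present in every cow, with a summed level of 8202 to 9213 CPM. Here CPM are scaled by the trimmed mean of M-values (TMM) and are not divided by transcript length, so levels were compared between cows. Between genes they served only to choose which gene to name, and such an order can follow transcript length. All 7 neutrophil markers passed the count minimum (highest CPM for CSF3R, median 1840), as did all 8 T cell markers (CD3E, 217.9 CPM), 6 B cell markers (BANK1, 396.7 CPM), 5 natural killer cell markers (PRF1, 48.0 CPM), 4 monocyte markers (CD68, 240.0 CPM), 6 platelet markers (TUBB1, 386.6 CPM) and 6 erythroid markers (HBB, 102.7 CPM). Of the 4 eosinophil markers only IL5RA passed, since CCR3 was at 0 in every cow and no gene of the files carried the symbol EPX or SIGLEC8, so this list was the level of 1 gene (20.2 to 199.9 CPM, median 58.8). The cows of the 56, 45 and 46 kg calves stood apart by the 3 lowest neutrophil scores (-1.78, -1.62 and -1.07, as the mean z-score of the markers), and they were in places 1, 4 and 2 from the highest for IL5RA. For the relations and slopes of members that move with them, values without these cows are given too. Fewer cells of a type and less RNA per cell cannot be told apart in these libraries.

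The initiation factors varied little between cows. Their coefficient of variation (CV, SD over mean of CPM, n = 20) had a median of 7.25%, from 2.41% for EIF4H to 24.8% for EIF1B. All genes tested had a median CV of 15.6%, and the 10445 genes whose mean level lay within the range of the members (4.85 to 924.6 CPM) had one of 10.6%. Of the 46 members, 38 were below that last value, 36 had a CV under 10%, and EIF1B and EIF4EBP1 had one over 15%. The 10445 genes share the outer limits of the members' levels and were not matched to them within these limits, so a difference in level was not taken out.

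**Figure D1:**
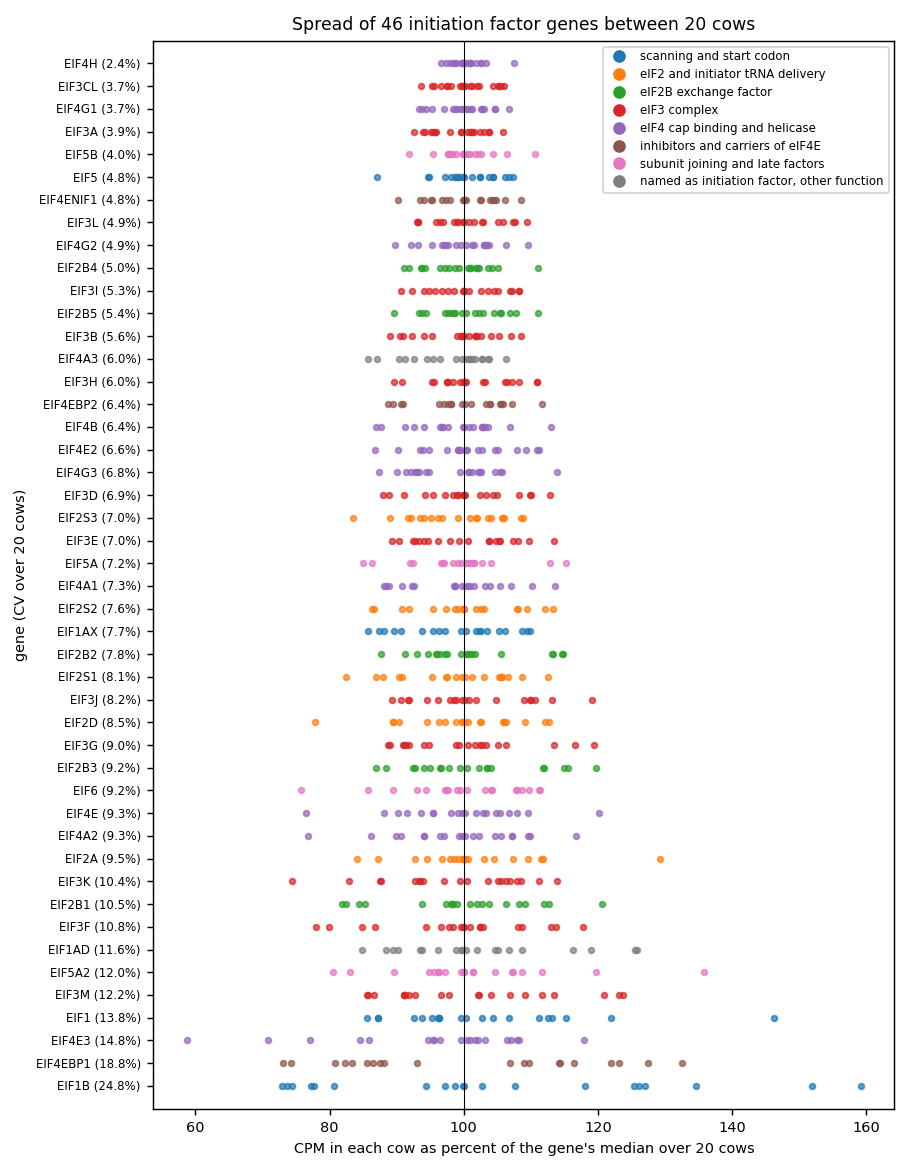
Level of each of the 46 initiation factor genes in 20 cows, as percent of the gene's own median CPM (x axis), 1 point per cow, genes ordered by CV (given beside each name) and coloured by role. EIF4H spans the narrowest range at the top, while EIF1B at the bottom spans from 77.4 to 168.9 CPM around a median of 106.1.

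Among the 4 factors of scanning and start codon choice, the median CV was 10.8%. EIF5, which prompts eIF2 to hydrolyse its GTP, lay between 202.9 and 250.2 CPM (median 233.1). EIF1B, a close relative of EIF1, went from 77.4 CPM in the cow of the 36 kg calf to 168.9 CPM in that of the 32 kg calf. EIF1, which guards against starts at wrong codons, went from 126.6 to 216.4 CPM (median 147.9, CV 13.8%). The highest EIF1 value belonged to the recipient that bore the 56 kg calf. The next, 180.3 CPM, belonged to that of the 46 kg calf, and both were among the 3 cows of low neutrophil scores.

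The 5 genes of eIF2 and initiator transfer RNA delivery had CVs between 7.04% and 9.54%. EIF2S3, the gamma subunit of eIF2, lay between 126.4 and 164.9 CPM (median 151.5), lowest in the cow of the 50 kg calf. EIF2A, a separate initiator transfer RNA binding protein, lay between 48.3 and 74.2 CPM (median 57.4), with the cow of the 41.5 kg calf above all others. Of the 5 eIF2B subunits, the catalytic EIF2B5 had 97.7 to 121.1 CPM (median 109.0), and the regulatory EIF2B1 had 7.76 to 11.4 CPM (median 9.47, CV 10.5%). EIF2B1 rested on 230 counts in its lowest cow, and counting alone gives it a CV of about 5.67%.

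Of the 13 eIF3 subunit genes, the scaffold EIF3A had 862.8 to 987.0 CPM (median 931.9, CV 3.88%). EIF3M showed the widest spread of the complex (65.5 to 94.6 CPM, median 76.5, CV 12.2%). The only gene with a symbol of the EIF3C type was EIF3CL (264.5 to 299.7 CPM, CV 3.70%). The handling of reads matching more than 1 gene is not given in the sources used here. Genes with close copies, among them EIF1 and EIF1B, EIF4A1 and EIF4A2, EIF5A and EIF5A2, EIF1AX and EIF3CL, are therefore uncertain.

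The 10 eIF4 genes of cap binding and unwinding had a median CV of 6.69%. EIF4G2, a relative of the scaffold eIF4G that lacks the site for eIF4E, had 614.4 to 749.5 CPM (median 684.2). EIF4E3, a cap-binding relative of eIF4E, had 40.7 to 81.6 CPM (median 69.2, CV 14.8%). Its 3 lowest values, 40.7, 49.0 and 53.3 CPM, belonged to the 3 cows of low neutrophil scores, and the next was 58.5 CPM. Among the genes that hold or carry eIF4E, EIF4ENIF1, which shuttles it into the nucleus, had 53.3 to 64.1 CPM (median 59.1), while the mTOR-controlled inhibitor EIF4EBP1 had 16.3 to 29.5 CPM (median 22.3, CV 18.8%).

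Of the 4 late factors, EIF5B had 267.6 to 322.4 CPM (median 291.3, CV 3.97%). EIF5A2, a second gene for the hypusine-carrying eIF5A, had 3.85 to 6.49 CPM (median 4.78) and as few as 107 counts, and its CV of 11.99% compares with 7.90% from counting alone. EIF4A3, a helicase of the exon junction complex in spite of its name, had 91.8 to 113.9 CPM (median 107.1), and EIF1AD had 15.5 to 23.0 CPM (median 18.3, CV 11.6%).

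The extremes of the members were not spread evenly over the cows. The same counts over all genes are not given here, so they are not read as a trait of these factors. The cow of the 50 kg calf was lowest for 13 of the 46 members, among them EIF2S1, EIF2S3, EIF2A, EIF4E, EIF4A2, EIF4B and EIF5, and had the lowest share of counts on the members (0.710%). The cow of the 41.5 kg calf was highest for 9, among them EIF2A, EIF4E, EIF4A2, EIF4G2, EIF4G3, EIF5B and EIF3J. The cow of the 47.4 kg calf had the highest share (0.812%) and was highest for 7, among them EIF4B, EIF3F, EIF3G and EIF3H. In the cow of the 30 kg calf, 37 members were below their median.

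Whether the factors moved together was asked of all 1035 pairs of members, as the correlation of log2 CPM over 20 cows. The median Pearson correlation (r) was 0.11 (jackknife SE over cows 0.042), 629 pairs were positive, 15.3% were above 0.5 and 5.02% below -0.5. Over all pairs of all genes tested, the median was -0.0018, with 3.60% above 0.5 and 3.24% below -0.5. With the Benjamini-Hochberg method over the 1035 pairs, a permutation test with 100000 resamples (two-sided) gave an adjusted p below 0.05 for 96 positive and 16 negative pairs. No such test was run over the pairs of all genes, so counts of pairs that passed have no share of all genes beside them.

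Pairs within eIF2 stood at a median r of 0.63 (SE 0.15, 3 pairs), and those within eIF3 at 0.33 (SE 0.11, 78 pairs, 64 of them positive). Pairs within eIF2B had a median of 0.099 (SE 0.22, 10 pairs), close to the 0.083 (SE 0.037) of the 944 pairs that are not of 1 complex. With 1 cow left out, the eIF2B median ran from -0.039 to 0.205, so its sign was not stable. Of the 3 pairs within eIF2, 2 passed the threshold, and of the 10 within eIF2B 0 passed. Within eIF3, 10 of the 78 pairs passed with a positive and 4 with a negative r. Over all 1035 pairs of members, 9.28% passed with a positive and 1.55% with a negative r.

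EIF2S2 and EIF2S3, the beta and gamma subunits of eIF2, had an r of 0.86 (permutation p = 1e-05, the smallest the resamples can give, adjusted p = 0.00129) and a Spearman rho of 0.82 (p = 3e-05, adjusted p = 0.0031). EIF2S1, the alpha subunit that the stress kinases phosphorylate, had an r of 0.55 with EIF2S3 (permutation p = 0.0127, adjusted p = 0.083) and a rho of 0.46 (p = 0.045, adjusted p = 0.19). Without the 2 cows farthest from the median of the first gene, these r were 0.78 and 0.46. Of the eIF2B pairs, EIF2B3 with EIF2B2 gave the highest r (0.43, permutation p = 0.0606, adjusted p = 0.207, rho 0.54, p = 0.015, adjusted p = 0.0976, 0.28 without 2 cows). EIF2B5 with EIF2B3 gave the lowest (-0.25, permutation p = 0.28, adjusted p = 0.512, rho -0.28, p = 0.239, adjusted p = 0.515, -0.16 without 2 cows).

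The highest r of all was between the eIF3 subunits EIF3F and EIF3K (0.91, rho 0.91), and EIF3E with EIF3M followed (0.87, rho 0.84). EIF4B, which aids the eIF4A helicase, had an r of 0.86 with EIF3H (rho 0.89), and EIF5A one of 0.85 with EIF3B (rho 0.87). For all 4 pairs the permutation p of r was 1e-05 and the adjusted p 0.00129. The permutation p of rho was between 1e-05 and 2e-05 and its adjusted p at most 0.00259. Without the 2 farthest cows, r was 0.87 for EIF3F with EIF3K, 0.83 for EIF3E with EIF3M, 0.88 for EIF4B with EIF3H and 0.76 for EIF5A with EIF3B.

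EIF3J, the loosely attached accessory subunit of eIF3, was negatively correlated with several other subunits. Its r was positive with EIF3M (0.34) and EIF3E (0.18) and -0.010 with EIF3H, and 4 of its 12 eIF3 pairs passed the threshold. Its median r with the other 12 subunits was -0.24, while the same median lay between 0.19 and 0.49 for each of the others. EIF3J had an r of -0.83 with EIF5A (rho -0.82, permutation p = 1e-05 and 2e-05, adjusted p = 0.00129 and 0.00259, -0.76 without 2 cows). With EIF3B, a core subunit, the r was -0.72 (rho -0.74, permutation p = 0.00029 and 0.00027, adjusted p = 0.00834 and 0.0115, -0.74 without 2 cows). With the eIF4G scaffold gene EIF4G1 it was also -0.72 (rho -0.73, permutation p = 0.00048 and 6e-04, adjusted p = 0.0106 and 0.0177, -0.65 without 2 cows). With EIF3F the r was -0.69 (permutation p = 0.00079, adjusted p = 0.0146, -0.56 without 2 cows), and rho, at -0.55, did not pass (p = 0.0137, adjusted p = 0.091). The last of the 5 lowest pairs was EIF4A2, a helicase gene, with EIF3K (-0.67, rho -0.69, permutation p = 0.00127 and 0.00089, adjusted p = 0.0202 and 0.0228, -0.57 without 2 cows). Without the 3 cows of low neutrophil scores, 72 pairs in place of 112 had an adjusted p below 0.05, in 17 cows.

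**Figure D2:**
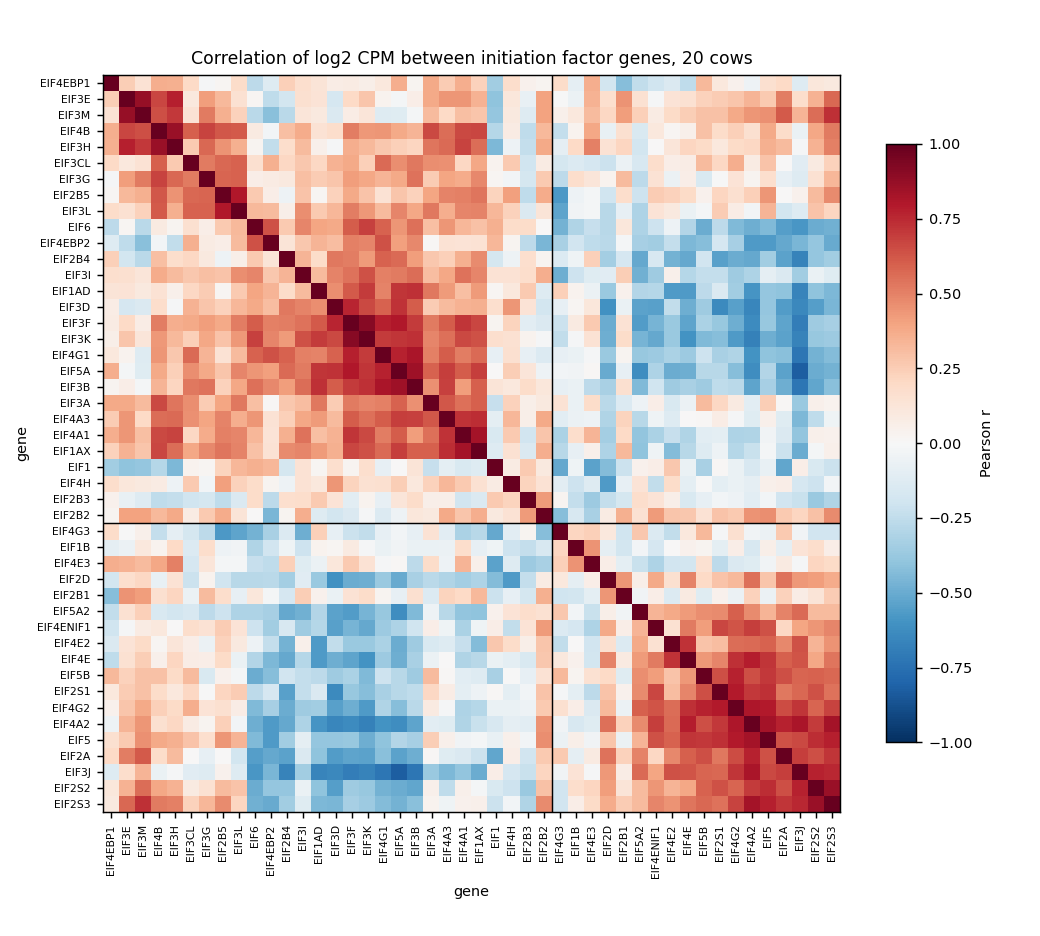
Pearson r of log2 CPM over 20 cows between all 46 members (both axes list the genes, colour gives r from -1 to 1), ordered by average linkage, with black lines between the 2 groups. Most pairs inside the diagonal blocks are red, with exceptions such as the blue squares of EIF1 with EIF3E, EIF3M and EIF3H, the median r between the blocks is -0.10, and the EIF3J row is blue against EIF5A, EIF3B and EIF4G1.

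When the members were joined by average linkage into 2 groups, a larger group of 28 held 12 of the 13 eIF3 subunits and 4 of the 5 eIF2B subunits. The smaller group of 18 held all 3 eIF2 subunits, EIF3J, EIF2B1, EIF4A2, EIF4E, EIF4G2, EIF5 and EIF5B. The median r was 0.31 within the larger and 0.38 within the smaller group, and -0.10 between them. The groups were made from these correlations, so the values describe the grouping and were not tested.

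How the members moved with the cell types of blood was asked with the marker scores and with the score of 78 cytosolic ribosomal protein genes, a list added after seeing the data. Over the 460 relations of 46 members with 10 lists, 16 had an adjusted p below 0.05 for r (permutation test, Benjamini-Hochberg). The smallest of these had an r of 0.64 in size, which 17 of the 460 relations reached (3.70%), near the 3.02% of all genes tested with the same lists. Of the 16, 9 were with the ribosomal proteins and all were positive. With this list 10 of 46 members reached 0.64 (21.7%), beside 3.74% of all genes in either direction and 2.11% with a positive r. The 9 that passed were EIF4B (r 0.83), EIF1AX (0.79), EIF4A1 (0.75), EIF3F (0.75), EIF3K (0.74), EIF3G (0.73), EIF3H (0.72), EIF2B5 (0.69) and EIF4A3 (0.66), with adjusted p between 0.0046 and 0.0414, while EIF3L reached an r of 0.65 without passing (adjusted p = 0.0557). EIF4B, the first of them, had a rho of 0.85 (permutation p = 1e-05, adjusted p = 0.0046) and an r of 0.77 without the 2 cows farthest from the median score. Without these cows EIF1AX (0.75), EIF3H (0.70) and EIF4A1 (0.69) also stayed above 0.64. The r fell below 0.64 for EIF3K (0.63), EIF3G (0.62), EIF3F (0.60), EIF4A3 (0.56) and EIF2B5 (0.54), so the 21.7% holds for all 20 cows only. By rho, EIF3F, EIF3K, EIF2B5 and EIF4A3 did not pass (adjusted p between 0.0715 and 0.151). Over all 46 members 33 were positive with this score (median r 0.32), while 48.9% of all genes tested were (median -0.0096).

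EIF1 moved with IL5RA, at an r of 0.86 (permutation p = 1e-05, adjusted p = 0.0046) and a rho of 0.83 (p = 2e-05, adjusted p = 0.0046). The r was 0.84 without the 2 cows farthest from the median of IL5RA and 0.75 without the 3 cows of low neutrophil scores. EIF1 also had an r of 0.74 with the leukocyte score (adjusted p = 0.0092), which was 0.79 without these 3 cows. EIF2A and EIF2D, both of which can deliver initiator transfer RNA without eIF2, had r of -0.73 and -0.69 with the leukocyte score (adjusted p = 0.0107 and 0.023), and for EIF2A the rho of -0.57 did not pass (adjusted p = 0.17).

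EIF4E3 moved with the neutrophil score at an r of 0.82 (permutation p = 2e-05, adjusted p = 0.0046) and a rho of 0.69 (adjusted p = 0.0451). Without the 3 cows of low neutrophil scores the r was 0.58. Its r of 0.76 with the monocyte score (adjusted p = 0.0246) was 0.13 without them and the rho of 0.39 did not pass (adjusted p = 0.472), so that relation rests on these cows. EIF4A1 had an r of 0.64 with the monocyte score (adjusted p = 0.0469, rho 0.72, adjusted p = 0.0375), and 0.61 without these cows. The most variable member, EIF1B, had its highest r with the platelet score (0.62, adjusted p = 0.0525, rho 0.64, adjusted p = 0.0779). No member passed with the T cell, B cell, natural killer cell, platelet or erythroid score. With the T cell score 38 of 46 were positive (51.3% of all genes), at a median r of 0.23 (all genes 0.0093). Without the 2 cows farthest from the median T cell score, some signs turned, as for EIF3G (0.44 to -0.092) and EIF3M (0.32 to -0.15). With the B cell score 9 of 46 were positive (48.1% of all genes), at a median r of -0.19 (all genes -0.014). Members reaching an r of 0.64 in size were 6.52% with the leukocyte score (all genes 4.86%) and 4.35% with the monocyte score (5.84%). With the neutrophil score and with IL5RA they were 2.17% (3.07% and 5.21%).

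**Figure D3:**
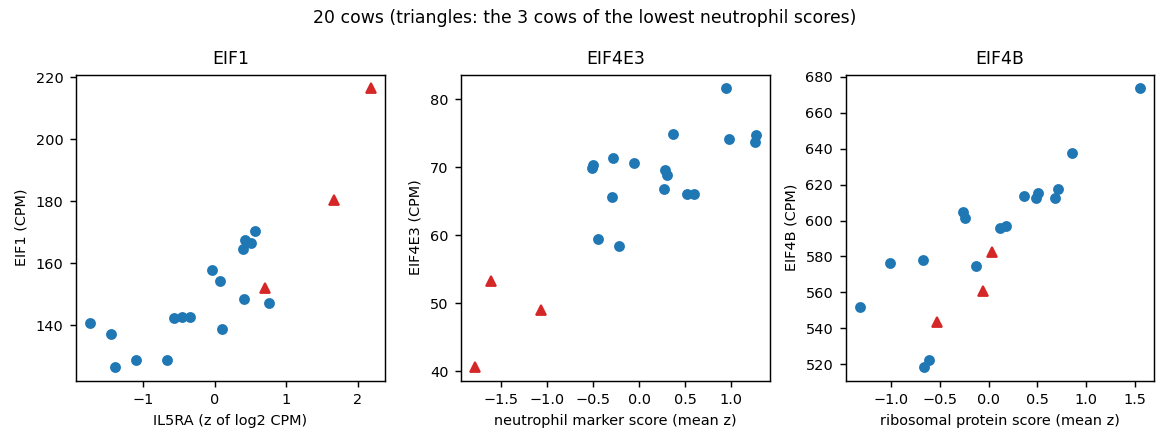
CPM of EIF1 against IL5RA (z-score of log2 CPM), of EIF4E3 against the neutrophil marker score and of EIF4B against the ribosomal protein score (mean z-scores) in 20 cows, 1 point per cow, with y axes that do not start at 0. The triangles are the 3 cows of the lowest neutrophil scores, which hold the 3 lowest EIF4E3 values (40.7, 49.0 and 53.3 CPM), and 1 of which holds the highest EIF1 value (216.4 CPM).

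The study asked which transcripts of maternal blood move with calf BW, and modelled counts on BW in 19 cows, without that of the 72.5 kg calf (BW 43.55 ± 7.97 kg, SD, n = 19). In the same 19 cows, edgeR's quasi-likelihood test with Benjamini-Hochberg adjustment over 16269 genes gave 0 members with an adjusted p below 0.05, as it gave 0 of all genes (0%). With DESeq2's Wald test, again 0 members passed, where 189 of 15479 genes with an adjusted p did (1.22%). At an unadjusted p below 0.05, edgeR gave 6 of 46 members (13.04%), near the 13.9% of all genes. Of these, 1 was positive (6.84% of all genes were called in that direction) and 5 were negative (7.06%). Negative slopes were found for 27 of 46 members, while 53.2% of all genes tested had one. The median slope was -0.0013 on the log2 scale per kg for the members and -0.00069 for all genes.

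**Figure D4:**
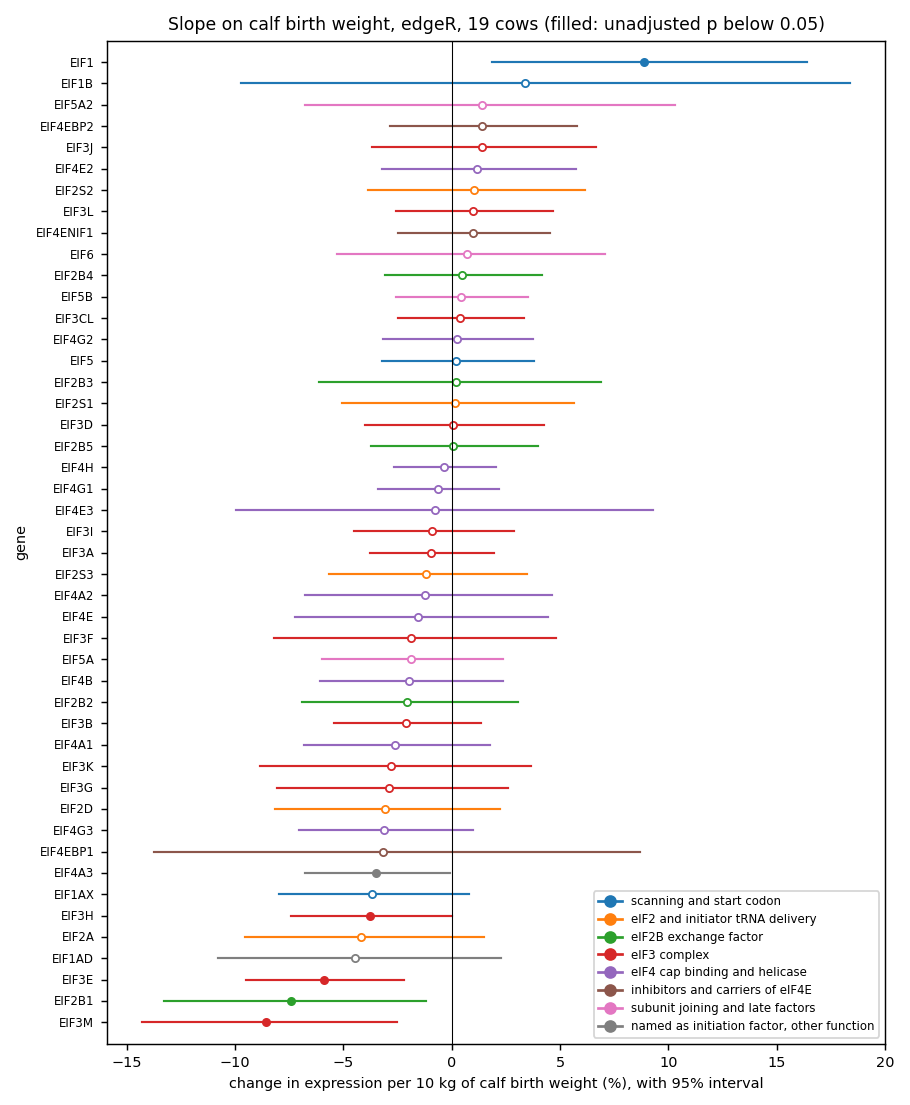
Change in expression of each member per 10 kg of calf BW (percent, x axis) in 19 cows, with the 95% interval from edgeR, ordered by slope and coloured by role; filled points have an unadjusted p below 0.05. Most intervals include 0, EIF1 has the highest slope (8.88%), and EIF3M the lowest (-8.59%).

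By role, the unadjusted p was below 0.05 for 1 of 4 scanning factors (EIF1), 0 of 5 genes of eIF2 and initiator delivery, 1 of 5 eIF2B subunits (EIF2B1), 3 of 13 eIF3 subunits (EIF3E, EIF3M and EIF3H), 0 of 10 eIF4 genes, 0 of 3 holders of eIF4E, 0 of 4 late factors and EIF4A3 of the 2 genes with another function. The 3 eIF3 subunits are 23.1% of 13, beside 13.9% of all genes. For eIF3, 9 of 13 slopes were negative, beside 53.2% of all genes. With so few genes per role, nothing is read from these shares.

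EIF3E, an eIF3 subunit, lay between 127.8 and 162.3 CPM (median 143.1). Its 5 highest values came from the cows of the 37, 35, 47.4, 32 and 40 kg calves, and its 5 lowest from those of the 54, 49.5, 46, 50 and 56 kg calves. The slope was -0.0088 per kg (SE 0.0027, unadjusted p = 0.0036, edgeR adjusted p = 0.177), which is -5.91% per 10 kg (95% interval -9.48 to -2.20%). The unadjusted p stayed below 0.05 in 19 of 19 fits that left out 1 cow, and DESeq2 gave an adjusted p of 0.0874. That value is above 0.05 but under the looser threshold that the study used when it compared its gene lists. The cow of the 72.5 kg calf, at 150.7 CPM, lay among the high values, and with all 20 cows the slope was -0.0036 (unadjusted p = 0.125).

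EIF3M, whose level followed that of EIF3E across the cows (r 0.87), lay between 65.5 and 94.6 CPM. Its highest values belonged to the cows of the 32, 37 and 47.4 kg calves, and its lowest to those of the 46, 50 and 54 kg calves. The slope was -0.013 per kg (SE 0.0045, unadjusted p = 0.00854, edgeR adjusted p = 0.211), or -8.59% per 10 kg (95% interval -14.3 to -2.51%). It too kept an unadjusted p below 0.05 in 19 of 19 such fits, but not with all 20 cows (-0.0053, p = 0.158), where the cow of the 72.5 kg calf had 83.5 CPM. EIF3H, the third eIF3 subunit, lay between 129.2 and 160.1 CPM (median 144.3), and its slope of -0.0056 per kg (SE 0.0027, unadjusted p = 0.0498, edgeR adjusted p = 0.359) had an unadjusted p below 0.05 in only 4 of 19 such fits. Without the 3 cows of low neutrophil scores it was -0.0038 (unadjusted p = 0.202), while EIF3E (unadjusted p = 0.013) and EIF3M (unadjusted p = 0.0217) stayed below 0.05.

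EIF1 was the only member with a positive slope at an unadjusted p below 0.05, at 0.012 per kg (SE 0.0046, unadjusted p = 0.0148, edgeR adjusted p = 0.244), or 8.88% per 10 kg (95% interval 1.86 to 16.4%). Of its 5 highest values, 4 came from cows of calves of 50 kg or more (56, 54, 55 and 50 kg), and the cow of the 72.5 kg calf had 147.3 CPM, near the median. With the 56 kg calf's cow left out, the slope was 0.0071 (unadjusted p = 0.113), and without the 3 cows of low neutrophil scores it was 0.0063 (unadjusted p = 0.136). IL5RA, with which EIF1 moved, had itself an r of 0.50 with BW over 20 cows (permutation p = 0.0249, adjusted p over the 10 lists = 0.249) and a rho of 0.60 (p = 0.00548, adjusted p = 0.0548), with an r of 0.57 without the 2 cows of extreme BW. With IL5RA as a covariate, an alternative added after seeing the data, the slope of EIF1 was 0.0019 (unadjusted p = 0.577). With the same covariate EIF3E had a slope of -0.0068 (unadjusted p = 0.0353) and EIF3M one of -0.010 (unadjusted p = 0.0561). EIF3H then had one of -0.0032 (unadjusted p = 0.294), EIF2B1 one of -0.011 (unadjusted p = 0.0544) and EIF4A3 one of -0.0048 (unadjusted p = 0.102).

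EIF2B1, the alpha subunit of eIF2B, was highest in the cow of the 47.4 kg calf (11.4 CPM) and lowest in those of the 53 and 55 kg calves (7.76 and 7.80 CPM). Its slope was -0.011 per kg (SE 0.0045, unadjusted p = 0.0224, edgeR adjusted p = 0.272), or -7.43% per 10 kg (95% interval -13.3 to -1.20%), with an unadjusted p below 0.05 in 17 of 19 fits without 1 cow and p = 0.129 with all 20. EIF4A3 had a slope of -0.0051 (SE 0.0024, unadjusted p = 0.0445, edgeR adjusted p = 0.347) and an unadjusted p below 0.05 in 6 of 19 such fits. In DESeq2 the unadjusted p was 0.051 for EIF4A3 and 0.0561 for EIF3H. EIF4A3 was lowest in the cow of the 72.5 kg calf (91.8 CPM), and with all 20 cows its unadjusted p was 0.00621. Without the 3 cows of low neutrophil scores, the unadjusted p was 0.0965 for EIF4A3 and 0.0248 for EIF2B1.

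**Figure D5:**
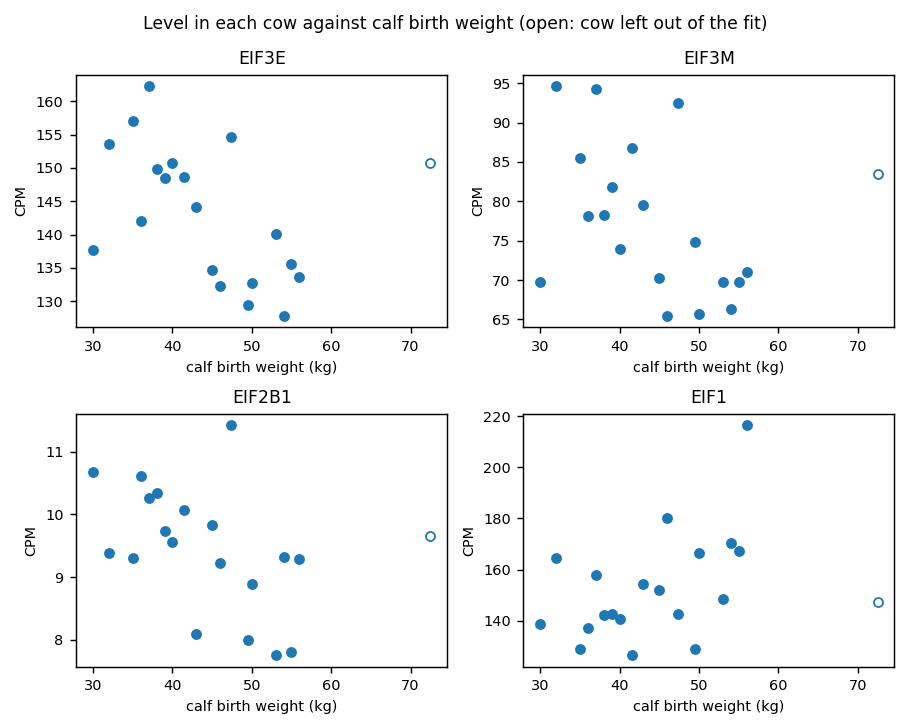
CPM of EIF3E, EIF3M, EIF2B1 and EIF1 (y axes, which do not start at 0) in each of 20 cows against calf BW in kg; the open point is the cow of the 72.5 kg calf, left out of the fit. EIF3E and EIF3M are higher in most cows of calves up to 41.5 kg than in those of calves from 45 kg on, except for the 47.4 kg calf (154.7 and 92.5 CPM) and the 72.5 kg calf (150.7 and 83.5 CPM), and the highest EIF1 value is at 56 kg.

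For the 40 other members the unadjusted p was above 0.05. The intervals were narrow for EIF4H (-2.68 to 2.06% per 10 kg), EIF4G1 (-3.42 to 2.20%), EIF3CL (-2.46 to 3.31%) and EIF5B (-2.57 to 3.52%). For EIF1B they ran from -9.73 to 18.4%, for EIF4EBP1 from -13.8 to 8.67% and for EIF4E3 from -9.95 to 9.28%. Changes within these intervals are not excluded by the data of 19 cows. The sign was not stable for some of these genes. The slope of EIF1B was 0.0048 per kg and turned to -0.0035 with all 20 cows, and leaving out 1 cow turned the sign for EIF4H, EIF4E3, EIF5B and EIF3CL.

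Regulators of initiation and the later steps of translation were read from the same fit, and none of their genes had an edgeR adjusted p below 0.05. Of the 4 kinases of eIF2, 1 had an unadjusted p below 0.05 (25%, beside 13.9% of all genes). This gene, EIF2AK2, the interferon-induced sensor of double-stranded RNA, had a slope of -0.021 per kg (unadjusted p = 0.0155, edgeR adjusted p = 0.247). It was highest in the cow of the 30 kg calf (345.6 CPM, median 169.0), without which the slope was -0.0069 (unadjusted p = 0.302). EIF2AK1, EIF2AK3 and EIF2AK4 had CVs between 4.37% and 5.53% and unadjusted p of 0.344, 0.121 and 0.564.

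Among 24 regulators and partners of initiation, 3 had an unadjusted p below 0.05 (12.5%, beside 13.9% of all genes). PPP1R15B, a subunit of the phosphatase that restores eIF2, had a slope of 0.0071 per kg (unadjusted p = 0.00644). Its median was 136.7 CPM, and it was lowest in the cow of the 30 kg calf (122.8 CPM) and highest in that of the 53 kg calf (155.6 CPM). IMPACT, an inhibitor of the kinase encoded by EIF2AK4, had one of 0.029 (unadjusted p = 0.00767), with 109.8 CPM in the cow of the 56 kg calf against a median of 46.6. Without that cow its slope was 0.015 (unadjusted p = 0.103). PDCD4, which holds the eIF4A helicase, lay between 196.1 and 317.7 CPM (median 259.8) and had a slope of -0.0096 (unadjusted p = 0.0257). Leaving out the 54 kg calf's cow gave -0.0088 (unadjusted p = 0.0526).

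Of 9 targets of the integrated stress response, which follows phosphorylation of eIF2, 2 had an unadjusted p below 0.05 (22.2%, beside 13.9% of all genes), in opposite directions. SLC7A11, the cystine transporter, ranged from 2.51 CPM in the cow of the 40 kg calf to 21.1 CPM in that of the 56 kg calf (median 7.203) with a slope of 0.066 per kg (unadjusted p = 0.000664). For this gene the edgeR adjusted p was 0.113, whereas DESeq2 gave 0.0163. With the 56 kg calf's cow left out its slope was 0.054 (unadjusted p = 0.00637). DDIT4, an inhibitor of mTOR signalling, lay between 8.28 and 16.6 CPM (median 11.1) and had a slope of -0.017 (unadjusted p = 0.0433), and -0.013 without the cow of the 56 kg calf (unadjusted p = 0.125). ATF4, the transcription factor of the response, had 330.2 to 394.9 CPM (CV 4.82%) and an unadjusted p of 0.303. ASNS, DDIT3 and TRIB3 had unadjusted p of 0.856, 0.157 and 0.682.

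Of 7 genes on the elongation list, 2 had an unadjusted p below 0.05 (28.6%, beside 13.9% of all genes). EEF2K, the kinase that inhibits elongation factor eEF2, lay between 80.2 and 148.2 CPM (median 94.9) and had a slope of 0.016 per kg (unadjusted p = 0.00586, edgeR adjusted p = 0.194), and 0.010 with the 56 kg calf's cow left out (unadjusted p = 0.0496). EEF1B2, which recharges elongation factor eEF1A with GTP, lay between 156.9 and 229.2 CPM (median 194.2) and had a slope of -0.0084 (unadjusted p = 0.0412, edgeR adjusted p = 0.338), with an unadjusted p below 0.05 in 10 of 19 fits that left out 1 cow. Of 3 termination and recycling genes, 1 had an unadjusted p below 0.05 (33.3%, beside 13.9%), and the release factor gene GSPT2 lay between 13.6 and 19.7 CPM (median 17.9) and had a slope of -0.0099 (unadjusted p = 0.0121, edgeR adjusted p = 0.228). EIF1, IMPACT, SLC7A11 and EEF2K each had their highest value in the cow of the 56 kg calf, which also had the lowest neutrophil score and the highest IL5RA level. These genes were named for a positive slope, and this cow bore the heaviest calf of the fit, so a high value there partly follows from that choice. PPP1R15B, also named for a positive slope, was highest in the cow of the 53 kg calf. The share of all genes with their highest value in the 56 kg calf's cow is not given here. Of the 78 cytosolic ribosomal protein genes, 70 had a negative slope, beside 53.2% of all genes (median -0.0030 per kg, all genes -0.00069). At the same time 4 had an unadjusted p below 0.05, all negative (5.13%, beside 13.9% of all genes in either direction). These were RPL6, RPS7, RPS24 and RPS27. The score of the 78 genes had an r of -0.33 with BW over 20 cows (permutation p = 0.151, adjusted p = 0.50). Its rho was -0.42 (permutation p = 0.063, adjusted p = 0.21), so neither passed.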

How the data were processed

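RNA-seq libraries of whole blood, collected in Tempus tubes that lyse cells and stabilize RNA, were made from 20 cows. The methods name a Truseq-stranded mRNA kit and the sample labels a SMARTer Stranded kit. The authors checked reads with FastQC 0.11.9, trimmed them with Trimmomatic, aligned them to ARS-UCD1.3 with STAR 2.7.0b and deposited raw counts per Entrez gene from featureCounts (Subread 2.0.3). The strand setting and the treatment of reads fitting several genes are not given in the sources used here. Symbols came from RefSeq for ARS-UCD2.0, in which all 37063 identifiers matched; no coordinates, sequences or transcript lengths were used.

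The smallest chi-square per degree of freedom over 190 pairs of libraries was 12.2, so none was a repeat. No batch was named in the labels. Genes reaching 10 counts in 5 or more of 20 cows were fitted in edgeR 4.0.16 (R 4.3.3; TMM, quasi-likelihood) as a slope on BW in 19 cows and adjusted by Benjamini-Hochberg. DESeq2 1.42.0, limma 3.58.1 with voom, other normalizations, filters, covariates and samples were alternatives. The script was tested on simulated data. Correlations used log2 CPM (prior count 2) and two-sided permutation tests of 100000 resamples; a marker score is the mean z-score of its genes.

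Members, role lists, pathway lists and markers were chosen with earlier results of these data known, and the ribosomal protein list and IL5RA as a covariate were added after the data were seen. The text names, per role, the gene of highest median CPM and of highest CV, genes with an unadjusted p below 0.05 (up to 3 per pathway list), and the extreme pairs (5 highest, 5 lowest and those within eIF2, eIF2B and eIF3). Other genes named for context, among them ATF4, ASNS, DDIT3, TRIB3, EIF4H, EIF4G1, EIF3CL, the other kinases of eIF2 and the 4 ribosomal protein genes, were chosen after their values were seen. Figures were drawn with matplotlib 3.10.9, and correlations were computed in scipy 1.17.1 and numpy 2.4.6 under Python 3.11.15.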

Additional observations from a re-analysis of the deposited data

How the results depend on the processing

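With edgeR, DESeq2 and limma-voom the count of members with an adjusted p below 0.05 was 0 under each alternative run, and in edgeR 6 had an unadjusted p below 0.05. The latter was 2 with all 20 cows (EIF4A3 and EIF1AX), 1 with IL5RA as a covariate (EIF3E), and 3 to 6 with 1 cow left out, where 3 came from leaving out that of the 56 kg calf. The cause was not tested. The count was 4 with DESeq2, RLE size factors and the neutrophil score as a covariate. It was also 4 with any count kept and with 10 counts in at least 10 cows. All of these put EIF3H and EIF4A3 above 0.05. With the filter counted over the 19 cows it was 6. Without the 3 cows of low neutrophil scores it was 4, of which EIF3E, EIF3M and EIF2B1 were among the 6 of the main fit. It was 5 with library size as a covariate. With the T cell score as a covariate, the 6 genes of the main fit all kept an unadjusted p below 0.05 (edgeR, from 0.00265 for EIF3E to 0.0411 for EIF4A3). The 13.9% of all genes with an unadjusted p below 0.05 belongs to the main fit, so the counts under the alternatives are not set beside it. Shares of all genes under the alternatives are not given here. A change in the count of members is therefore not read as a result about the initiation factors. Between 25 and 35 members had a negative slope with 1 cow left out. Pairs with an adjusted p below 0.05 numbered 112, between 78 (41.5 kg calf) and 119 with 1 cow left out, and 72 without the 3 cows of low neutrophil scores, which leaves fewer samples. The median r of pairs not of 1 complex was 0.126 in place of 0.083 with library size alone. EIF3J with EIF3F did not pass with the Spearman correlation (adjusted p = 0.091) or without the 3 cows (adjusted p = 0.0629), and with library size alone EIF4G1 with EIF3J did not (adjusted p = 0.0988). EIF4A2 with EIF3K did not once the 41.5 kg calf's cow (adjusted p = 0.07) or the 3 cows (adjusted p = 0.0629) were left out. EIF2S1 with EIF2S3 did pass in 4 alternatives: library size alone (adjusted p = 0.0457), residuals on the neutrophil and T cell scores (0.0475), and without the cow of the 35 kg (0.041) or 40 kg calf (0.0271). No direction was reversed among the named pairs and the slopes of EIF1, EIF2B1, EIF3E, EIF3H, EIF3M and EIF4A3. Levels per transcript length and a search of start sites were not run, for want of lengths and sequences. No paired analysis was possible because all cows form 1 group. Counts per cow were at least 2151 for EIF1B, whose CV of 24.8% compares with 1.63% from counting alone, and at least 107 for EIF5A2 (11.99% and 7.90%).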
